A study of Glycine max with 9 samples.

Results

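NAC and bZIP proteins are 2 large families of plant transcription factors, and their genes were followed here in soybean root tips during the first 40 min of a sucrose treatment. The members were taken by symbol: every gene whose name begins with NAC or BZIP followed by a digit or a hyphen, which gave 41 NAC and 77 bZIP genes, 118 of the 62645 gene identifiers in the deposited table. Of these, 30 NAC and 74 bZIP genes had 3 or more of the 9 libraries at an FPKM of 1 or above and are reported. FPKM is the number of sequenced fragments relative to transcript length and library size, here summed over all transcripts that share a gene identifier. The remaining 11 NAC genes (NAC42-2, NAC51, NAC157, NAC160, NAC162, NAC165, NAC166, NAC167, NAC172, NAC176 and NAC180) and 3 bZIP genes (BZIP4, BZIP35 and BZIP69) reached this level in at most 1 library. Just inside the limit was NAC163, at 1 FPKM or more only in the 3 libraries of 40 min (1.04 to 2.41 FPKM). Just outside were NAC166, at 1.35 FPKM in library 9 and at most 0.729 FPKM in any other, and NAC51, at 6.54 FPKM in library 4 and at most 0.774 FPKM in any other.

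NAC proteins share an N-terminal DNA-binding domain and a variable C-terminal part that activates or represses transcription, and they are known in roots for lateral root growth, senescence, cell death and the response to drought and salt. bZIP proteins bind DNA as dimers through a basic region and a leucine zipper, and recognise sequences with an ACGT core. In Arabidopsis several bZIP proteins act in abscisic acid signalling, in defence (the TGA factors) and in the low-energy response controlled by the SnRK1 kinase, and sucrose represses translation of a small class of them through a short open reading frame in the leader of the mRNA.

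The plants were wild-type soybean (Glycine max, cultivar Williams 82), grown for 4 weeks in nutrient solution, and sections of about 2 cm with the root tip were taken before sucrose (t0) and when 10 mM sucrose had been on the roots for 20 min (t20) or 40 min (t40). Each time was represented by 3 plants and 3 libraries. The table numbers the libraries without replicate labels, with libraries 1 to 3 from t0, libraries 4 to 6 from t20 and libraries 7 to 9 from t40. No plants were harvested at 20 or 40 min without sucrose, so time in the solution, handling and sucrose cannot be told apart.

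The spacing of low values implies 23.3 to 37.2 (t0), 21.8 to 42.2 (t20) and 13.2 to 21.1 (t40) fragments per library, each in units of 1000000, so low values are least precise at t40. The t20 libraries did not form a tight group. Among the 23 family genes that were higher at 40 min, library 5 had the lowest t20 value for 20 and library 4 the highest for 20. On the median gene, library 5 lay 16.1% of the way from the t0 to the t40 mean on the log2 scale, library 6 lay 45.2% and library 4 lay 91.9%. Results at 20 min are therefore also given without library 5. This choice was made from the values of these same genes and so favours higher calls among them at 20 min. For the root tip label, the auxin exporter genes PIN2A and PIN2B, which act in the root tip, were picked from a longer list of root markers. They were at 3.28 to 18.3 FPKM in all 9 libraries. The root marker list as a whole (49 symbols, 31 tested, some of them matched by letters alone) summed to 385 to 472 FPKM in the t0 libraries, 403 to 1052 FPKM at t20 and 997 to 1143 FPKM at t40. Of its 49 symbols 5 were at 0 in every library. By the test described below, 13 of the 31 (41.9%) were higher at 40 min and 0 lower, where 10.5% of all tested genes were higher and 3.49% lower. The nodule list (41 symbols, 16 tested) summed to 182 to 414 FPKM at t0, 238 to 579 FPKM at t20 and 336 to 409 FPKM at t40. Its letters also took in the LBD genes, and NOD33, a gene with a nodulin symbol, made up much of the sum with 87.9 to 430 FPKM. The leghemoglobin genes of that list, which define nodules, were at 0 in every library for LBA, LBC1 and LBC3 and at most at 0.149 FPKM for LBC2. Summed leaf markers (9 symbols, 6 tested) ranged from 142 to 355 FPKM at t0, from 168 to 695 at t20 with the highest value in library 6, and from 109 to 142 at t40. Among them RCAALPHA, a Rubisco activase gene, passed the test at 20 min (adjusted p = 0.0411), and its adjusted p was 0.129 without library 4, 0.00176 without library 5 and 0.103 without library 6. The part of these shifts in the results below was not tested. In whole root tips, fewer cells of a type and less RNA per cell cannot be told apart.

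Genes were compared with limma on log2(FPKM + 1), with Benjamini-Hochberg adjustment over all 32763 genes that reached the same minimum, and a gene counts as higher or lower with an adjusted p under 0.05 and a change of at least 1 on the log2 scale. At 40 min of sucrose, 16 of the 30 NAC genes (53.3%) were higher than at t0 and 0 were lower, where 10.5% of all tested genes were higher and 3.49% were lower. Of the 74 bZIP genes, 7 (9.46%) were higher and 2 (2.70%) lower, near these shares of all genes. At 40 min the median change on the log2 scale was 1.09 for NAC genes, 0.16 for bZIP genes and 0.06 for all tested genes. The change was positive for 27 NAC genes (90%) and 49 bZIP genes (66.2%), against 54.4% of all genes. Under quantile normalization the medians were 0.84 for NAC and 0.01 for bZIP genes, and the median of all genes was -0.11. With it 27 NAC and 38 bZIP genes were positive, for which the share of all genes was not counted. All t40 libraries lay above all t0 libraries for 20 NAC genes (66.7%) and 26 bZIP genes (35.1%), against 26.6% of all genes. All lay below for 0 NAC genes and 10 bZIP genes (13.5%), against 20.8% of all genes. The count of 0 lower NAC genes was 0 by unadjusted p under 0.05 as well, for which the share of all genes was not counted.

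The minimum on FPKM acted on the NAC count. For 8 NAC genes no t0 library reached 1 FPKM, so they entered only through sucrose libraries, and 6 of them were among the 16. Of all 1576 genes that entered in this way, 53.6% were higher. Of the 22 NAC genes with at least 1 t0 library at the minimum, 10 were higher (45.5%, against 8.33% of all such genes). Split by the mean over all 9 libraries, which a rise itself lifts, 9 of the 15 NAC genes with a mean of 5 FPKM or more were higher (60%, against 10.9% of all such genes), and 7 of the 15 with a lower mean (46.7%, against 9.98%). No bZIP gene depended on the sucrose libraries in this way, and all 9 bZIP genes called at 40 min had a mean of 5 FPKM or more.

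**Figure D1:**
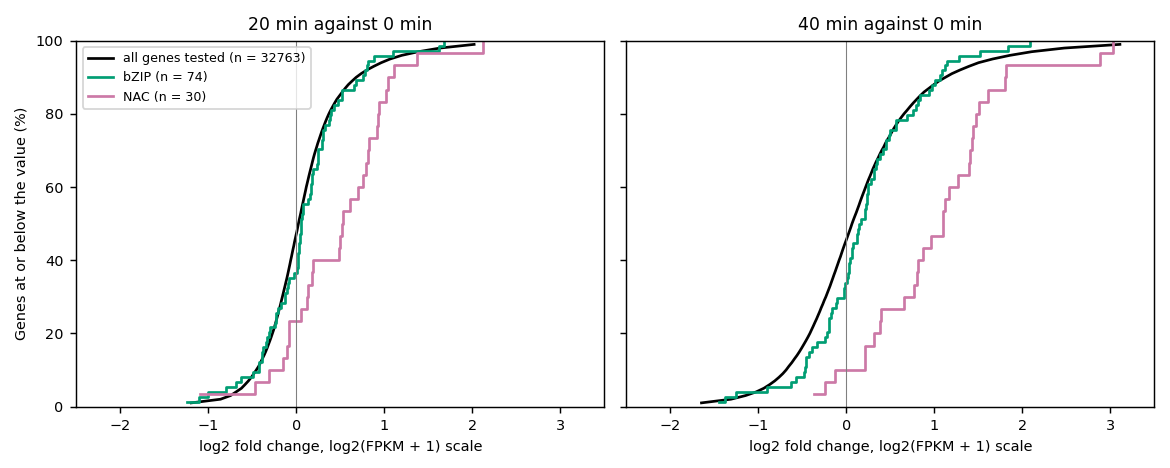
Cumulative share of genes (percent, vertical axis) at or below each log2 fold change (horizontal axis, log2(FPKM + 1) scale) at 20 min (left) and 40 min (right) against t0, for all 32763 genes tested, 74 bZIP genes and 30 NAC genes. At 40 min the NAC curve lies to the right, with a median of 1.09 against 0.06 for all genes, and the bZIP curve lies close to all genes with a median of 0.16. The NAC curve includes 8 genes that met the minimum only through sucrose libraries.

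NAC018 (chromosome 6, 12893118 to 12894967, Glycine_max_v4.0) had the largest rise of either family. It was at 3.19, 2.72 and 3.01 FPKM in libraries 1 to 3, at 28.2, 6.18 and 23.5 FPKM in libraries 4 to 6, and at 19.0, 39.9 and 41.1 FPKM in libraries 7 to 9. The t0 libraries were close together, every sucrose library lay above them, and libraries 5 and 7 were the lowest of their times. The log2 fold change at 40 min was 3.04 ± 0.48 (SE, n = 3 against 3; limma, adjusted p = 0.00322).

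NAC6 (chromosome 12, 1654462 to 1656607), known in soybean as a stress-induced factor of the cell death pathway that runs through the NRP-A and NRP-B proteins, was higher at 40 min. Its values were 3.80, 2.51 and 3.17 FPKM at t0, 3.90, 3.72 and 12.1 FPKM at t20, and 23.2, 28.0 and 39.2 FPKM at t40. Libraries 4 and 5 were within or just above the t0 range, library 6 lay between, and the t40 libraries stood above all others. The log2 fold change was 2.88 ± 0.37 at 40 min (limma, adjusted p = 0.00139).

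NAC42-1 (chromosome 2, 48410469 to 48413916) encodes a soybean factor that activates the synthesis of glyceollins, the isoflavonoid phytoalexins of this species. It was low throughout, at 0.795, 0.331 and 0.352 FPKM at t0, 1.52, 0.748 and 1.17 FPKM at t20, and 3.13, 3.25 and 3.21 FPKM at t40. The t40 libraries were nearly equal and lay above every other library, and the change was 1.51 ± 0.19 on the log2 scale (limma, adjusted p = 0.00135). At t0 these values rest on an estimated 10.0 to 24.0 fragments per library.

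**Figure D2:**
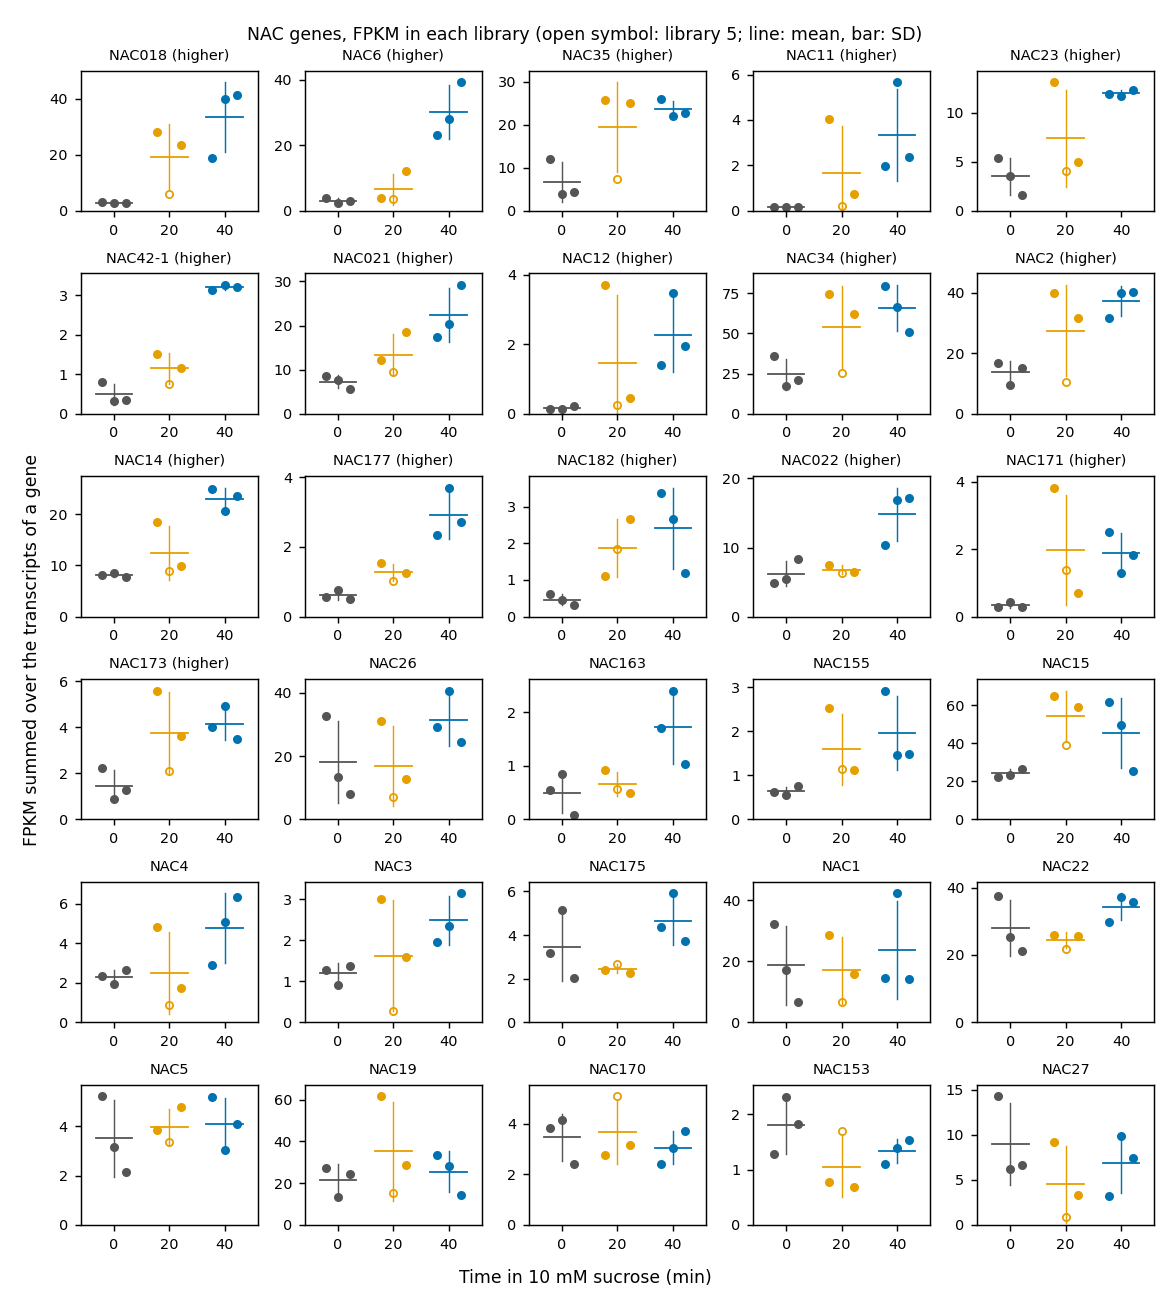
FPKM (vertical axes, each from 0) of the 30 reported NAC genes in each of the 9 libraries at 0, 20 and 40 min of sucrose, ordered by log2 fold change at 40 min, with the mean (line) and SD (bar, cut at 0) of the 3 libraries of a time. Library 5 is the open symbol; genes marked as higher passed the test at 40 min, and for most of them library 5 lies near the t0 libraries.

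Among the abundant NAC genes, NAC34 (chromosome 8, 13883748 to 13888369), the highest of the family on average, was at 35.6, 17.0 and 20.8 FPKM at t0, 74.2, 25.2 and 62.1 FPKM at t20, and 79.7, 66.3 and 51.0 FPKM at t40. NAC2 (chromosome 6, 9212051 to 9213978) was at 16.7, 9.48 and 15.0 FPKM at t0, 39.9, 10.6 and 31.8 FPKM at t20, and 31.5, 40.0 and 40.1 FPKM at t40. NAC35 (chromosome 15, 50289868 to 50294586) was at 12, 3.86 and 4.32 FPKM at t0, 25.8, 7.32 and 25.1 FPKM at t20, and 25.9, 22.2 and 22.6 FPKM at t40. In all of them libraries 4 and 6 were already at the t40 level, library 5 stayed within the t0 range, and t0 and t40 did not overlap. The log2 fold changes at 40 min were 1.43 ± 0.40 for NAC34, 1.40 ± 0.41 for NAC2 and 1.82 ± 0.48 for NAC35 (limma, adjusted p 0.0301, 0.0367 and 0.0243). Another assembled locus overlaps NAC2, and the share of its reads in the sum is not known. NAC2 did not pass on its annotated rows alone.

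NAC23 (chromosome 16, 31457847 to 31460186) was at 5.41, 3.54 and 1.62 FPKM at t0, at 13.1 FPKM in library 4 but 4.10 and 4.94 FPKM in libraries 5 and 6, and at 11.9, 11.7 and 12.3 FPKM at t40. Here only library 4 of t20 had reached the t40 level. The change was 1.61 ± 0.40 (limma, adjusted p = 0.0199). NAC11 (chromosome 19, 36627624 to 36630036) and NAC12 (chromosome 16, 4020145 to 4022356) were almost silent before sucrose. NAC11 was at 0.155 to 0.182 FPKM at t0, at 4.04, 0.228 and 0.733 FPKM at t20 and at 1.96, 5.66 and 2.39 FPKM at t40. NAC12 was at 0.138 to 0.212 FPKM at t0, at 3.70, 0.247 and 0.457 FPKM at t20 and at 1.41, 3.47 and 1.95 FPKM at t40. Both rose on the log2(FPKM + 1) scale, by 1.80 ± 0.47 and 1.44 ± 0.44 (limma, adjusted p 0.0243 and 0.0407), a scale that understates the change of genes this low. Their t0 values rest on an estimated 6 to 10 and 5 to 12.3 fragments per library.

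NAC177 (chromosome 16, 1421948 to 1423867) was at 0.494 to 0.750 FPKM at t0, at 1.03 to 1.53 FPKM at t20 and at 2.33 to 3.70 FPKM at t40, so the 3 times did not overlap. The change at 40 min was 1.27 ± 0.18 (limma, adjusted p = 0.00208). The 4 further NAC genes that rose, NAC182, NAC022, NAC171 and NAC173, had log2 fold changes of 1.17, 1.12, 1.10 and 1.09. NAC022, NAC171 and NAC182 overlap other loci in the assembly.

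The 14 NAC genes that did not pass the test lay between -0.37 and 0.96 on the log2 scale. NAC15 (chromosome 8, 46585377 to 46586558), the second most abundant of the family, was at 22.2, 23.6 and 26.7 FPKM at t0, 64.7, 39.4 and 59.3 FPKM at t20 and 61.7, 49.6 and 25.4 FPKM at t40. Its t20 libraries all lay above t0, while library 9 fell within the t0 range and the value at 40 min was 0.80 ± 0.31 (limma, adjusted p = 0.0872). Without library 9 it was 1.17 (limma, adjusted p = 0.0223), the 1 of 9 fits with a library left out in which NAC15 passed. Its lowest value in these fits was 0.54, and its highest adjusted p was 0.284 without library 7 (limma). NAC22 (chromosome 2, 42824101 to 42828021) and NAC19 (chromosome 13, 9200159 to 9201956) had the smallest changes among NAC genes with a mean of 5 FPKM or more. NAC22 was at 21.3 to 37.4 FPKM at t0, 21.8 to 26.0 FPKM at t20 and 29.9 to 37.3 FPKM at t40, a log2 value of 0.32 ± 0.22. NAC19 was at 13.3 to 27.4 FPKM at t0 and 14.5 to 33.7 FPKM at t40, a log2 value of 0.21 ± 0.49, and at 61.7 FPKM in library 4. NAC27, known in soybean as SIN1, a factor of root growth under salt, had the lowest value of the family, -0.37 ± 0.57, and its libraries overlapped (6.17 to 14.3 FPKM at t0, 3.26 to 9.83 FPKM at t40).

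The calls rested on single libraries to a different degree. With each of the 9 libraries left out in turn, NAC018, NAC6, NAC42-1, NAC021, NAC14 and NAC177 passed the test at 40 min in all 9 fits. The others passed in 3 to 7 fits: NAC12 in 3, NAC2 and NAC35 in 4, NAC23 and NAC34 in 5, and NAC11 in 6. Their highest adjusted p was 0.141 for NAC12 and 0.0912 for NAC11 (both without library 8), 0.109 for NAC2 (without library 2), 0.0803 for NAC35 and 0.0643 for NAC23 (both without library 3), and 0.103 for NAC34 (without library 7). The direction did not change in any of these fits. The count of NAC genes that were higher was 10 without library 2, 7 without library 3, 8 without library 7 and 6 without library 8, and it was 13 to 16 without any one of the others. Of all genes, 9.39%, 7.47%, 7.49% and 7.51% were higher without library 2, 3, 7 and 8. The share of all genes was 8.66% to 11.8% without any one of the others, and 10.5% with all libraries.

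BZIP3 (chromosome 14, 49059564 to 49063462) had the largest rise among bZIP genes. It was at 3.14, 2.77 and 1.87 FPKM at t0, 10.9, 4.46 and 5.73 FPKM at t20, and 14.5, 14.5 and 13.4 FPKM at t40. The 3 times did not overlap, and the log2 fold change at 40 min was 2.09 ± 0.28 (limma, adjusted p = 0.00144). BZIP1 (chromosome 2, 14020407 to 14024482), also named AREB1 after the abscisic acid response element that this type of factor binds, was at 5.86, 2.94 and 2.23 FPKM at t0, 7.87, 4.10 and 6.52 FPKM at t20, and 7.72, 10.3 and 7.49 FPKM at t40. Its groups at t0 and t40 did not overlap but library 1 came near, and the change was 1.09 ± 0.30 (limma, adjusted p = 0.0297).

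BZIP59 (chromosome 10, 1180316 to 1181481) and BZIP60 (chromosome 2, 1131956 to 1133088) are single-exon genes and were among the most abundant of the family. BZIP59 was at 56.3, 49.7 and 61.4 FPKM at t0, 115, 45.5 and 90.1 FPKM at t20, and 143, 161 and 182 FPKM at t40. BZIP60 was at 55.5, 52.5 and 63.3 FPKM at t0, 94.3, 47.6 and 78.4 FPKM at t20, and 110, 127 and 146 FPKM at t40. For both, library 5 was below every t0 library, libraries 4 and 6 lay between t0 and t40, and the t40 libraries were the highest. The changes at 40 min were 1.52 ± 0.30 and 1.14 ± 0.25 (limma, adjusted p 0.00856 and 0.0130). Both genes overlap other loci of the assembly.

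BZIP42 (chromosome 12, 7249873 to 7258577, with 22 assembled transcripts) was at 67.3, 37.3 and 40.6 FPKM at t0, 110, 44.1 and 108 FPKM at t20, and 115, 114 and 83.8 FPKM at t40. Library 5 again stayed in the t0 range, and the change of 1.12 ± 0.36 was just inside the threshold (limma, adjusted p = 0.0493). BZIP68 (chromosome 2, 19655794 to 19658859) was at 44.2, 35.2 and 43.1 FPKM at t0, 63.3, 49.4 and 48.3 FPKM at t20, and 79.9, 88.6 and 80.4 FPKM at t40. All t20 libraries lay between t0 and t40, and the change was 1.01 ± 0.18 (limma, adjusted p = 0.00521).

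Among the bZIP genes that fell, BZIP125 (chromosome 4, 815605 to 816847) was the most abundant gene of the family before sucrose. It was at 135, 147 and 124 FPKM at t0, 49.4, 94.2 and 64.2 FPKM at t20, and 42.2, 49.1 and 56.0 FPKM at t40. All sucrose libraries lay below t0, library 5 the least so, and the log2 value fell by 1.45 ± 0.24 at 40 min (limma, adjusted p = 0.00390). BZIP119 (chromosome 19, 23150369 to 23154711) was at 8.86, 11.8 and 15.7 FPKM at t0, 5.00, 9.03 and 7.56 FPKM at t20, and 2.56, 4.82 and 4.86 FPKM at t40. The t40 libraries lay below all others, and the log2 value fell by 1.37 ± 0.29 (limma, adjusted p = 0.0101).

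BZIP71 (chromosome 6, 3027702 to 3032874) was the 1 gene of both families that passed the test at 20 min. Its values were 10.9, 12.3 and 11.3 FPKM at t0, 5.29, 4.51 and 4.65 FPKM at t20, and 6.01, 5.90 and 5.11 FPKM at t40. For this gene library 5 did not stand apart, and all sucrose libraries were lower than all t0 libraries. The log2 value fell by 1.10 ± 0.15 at 20 min (limma, adjusted p = 0.0316) and by 0.91 ± 0.15 at 40 min (adjusted p = 0.00431), the latter short of the fold threshold. The call at 20 min held in 3 of 9 fits with a library left out, with the highest adjusted p at 0.121 without library 6. Another locus overlaps the gene.

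**Figure D3:**
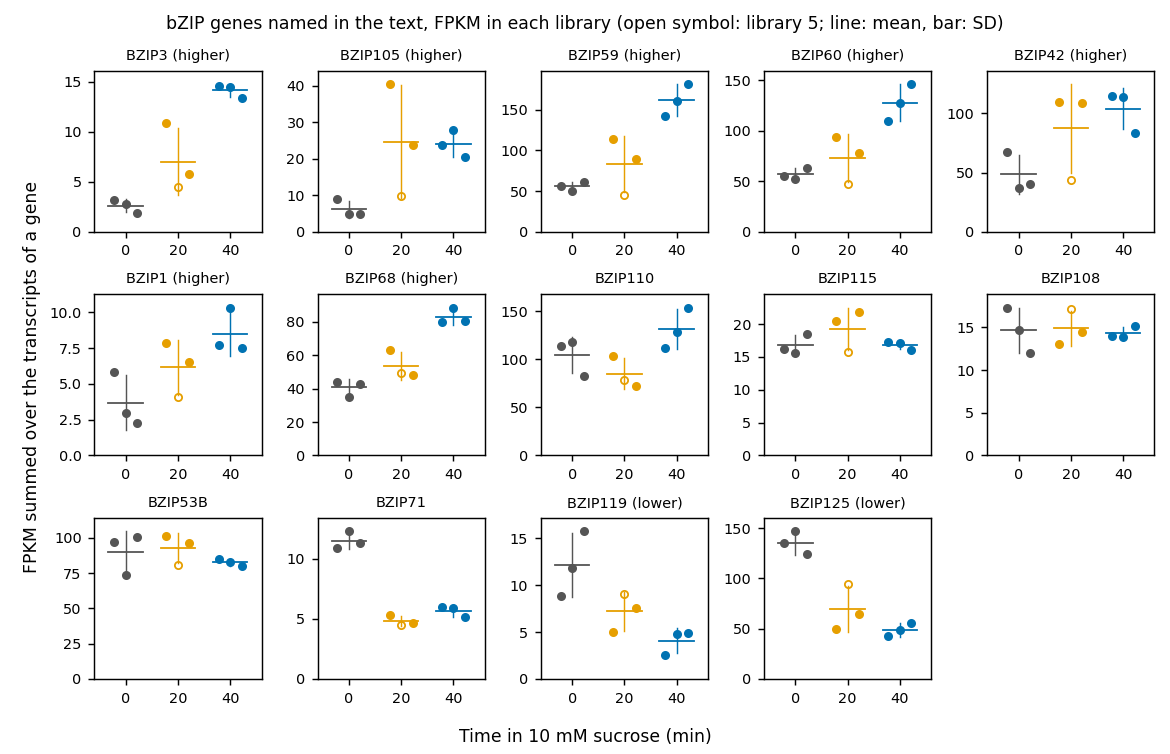
FPKM (vertical axes, each from 0) of 14 bZIP genes in each of the 9 libraries at 0, 20 and 40 min of sucrose, ordered by log2 fold change at 40 min, with the mean (line) and SD (bar) of the 3 libraries of a time and library 5 as the open symbol. BZIP3 rises from 1.87 to 3.14 FPKM at t0 to 13.4 to 14.5 FPKM at t40, BZIP71 falls at both times, and BZIP115 and BZIP108 stay level.

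The most abundant bZIP genes by the mean over all libraries were BZIP110, BZIP59 and BZIP53B. BZIP110 (chromosome 8, 8846278 to 8847685) was at 82.5 to 117 FPKM at t0, 72.4 to 103 FPKM at t20 and 112 to 154 FPKM at t40, with a log2 value of 0.33 ± 0.22 at 40 min (limma, adjusted p = 0.292). BZIP53B (chromosome 19, 47456699 to 47457506), whose Arabidopsis namesake activates the proline dehydrogenase and asparagine synthetase genes, was at 73.7 to 100 FPKM at t0 and 80.3 to 84.7 FPKM at t40, with a log2 value of -0.11 ± 0.19. The steadiest genes were BZIP115 (chromosome 2, 5247662 to 5253624), at 15.7 to 18.5 FPKM at t0 and 16.1 to 17.2 FPKM at t40, and BZIP108 (chromosome 2, 1859611 to 1868491), at 12 to 17.3 FPKM at t0 and 13.8 to 15.2 FPKM at t40. Their log2 values were 0.00 ± 0.17 and -0.02 ± 0.18.

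Of the 74 bZIP genes, 50 lay within 0.5 of no change at 40 min, for which the share of all genes was not counted. The lower and upper quartiles were -0.17 and 0.49 for bZIP genes, and -0.32 and 0.52 for all genes. The 65 bZIP genes that did not pass at 40 min lay between -1.25 and 1.28 on the log2 scale. Both ends of this range were genes with libraries far apart. BZIP104 was at 2.27 to 4.57 FPKM at t0, 27.9, 4.10 and 11.1 FPKM at t20 and 6.18 to 10.6 FPKM at t40 (log2 value 1.28, limma adjusted p = 0.0995). BZIP72 was at 104, 29.7 and 43.6 FPKM at t0 and 8.22, 52.5 and 20.4 FPKM at t40, with overlapping groups (log2 value -1.25, adjusted p = 0.168). The 5 genes BZIP71, BZIP73A, BZIP83, BZIP90 and BZIP98 had an adjusted p under 0.05 but a change under 1, BZIP83 being a TGA factor by its synonym (0.84, adjusted p = 0.0148). These genes of both extremes were picked after their values were seen. The 13 reported bZIP genes with a single exon, a structure common in the group S of Arabidopsis bZIP genes, had a median log2 value of 0.12 at 40 min and a median level of 36.8 FPKM, and the 61 genes with more exons had 0.21 and 8.73 FPKM. Of the single-exon genes 2 were higher and 1 lower, and of the others 5 were higher and 1 lower, where 10.5% of all genes were higher and 3.49% lower.

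Leaving out each library in turn, BZIP3, BZIP59, BZIP60, BZIP125 and BZIP119 passed at 40 min in all 9 fits. BZIP105 and BZIP68 passed in 7, BZIP1 in 4 and BZIP42 in 3 of them. Without library 8, the highest adjusted p was 0.0587 for BZIP105, 0.109 for BZIP1 and 0.141 for BZIP42, while BZIP68 dropped to a change of 0.96. The count of bZIP genes that were higher was 4 without library 2 or without library 3 and 3 without library 8, and 5 to 9 without any one of the others, and the 2 lower genes were called in each of these fits. Of all genes, 9.39%, 7.47% and 7.51% were higher without library 2, 3 and 8, and 7.49% to 11.8% without any one of the others. From 1.65% to 4.61% of all genes were lower.

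**Figure D4:**
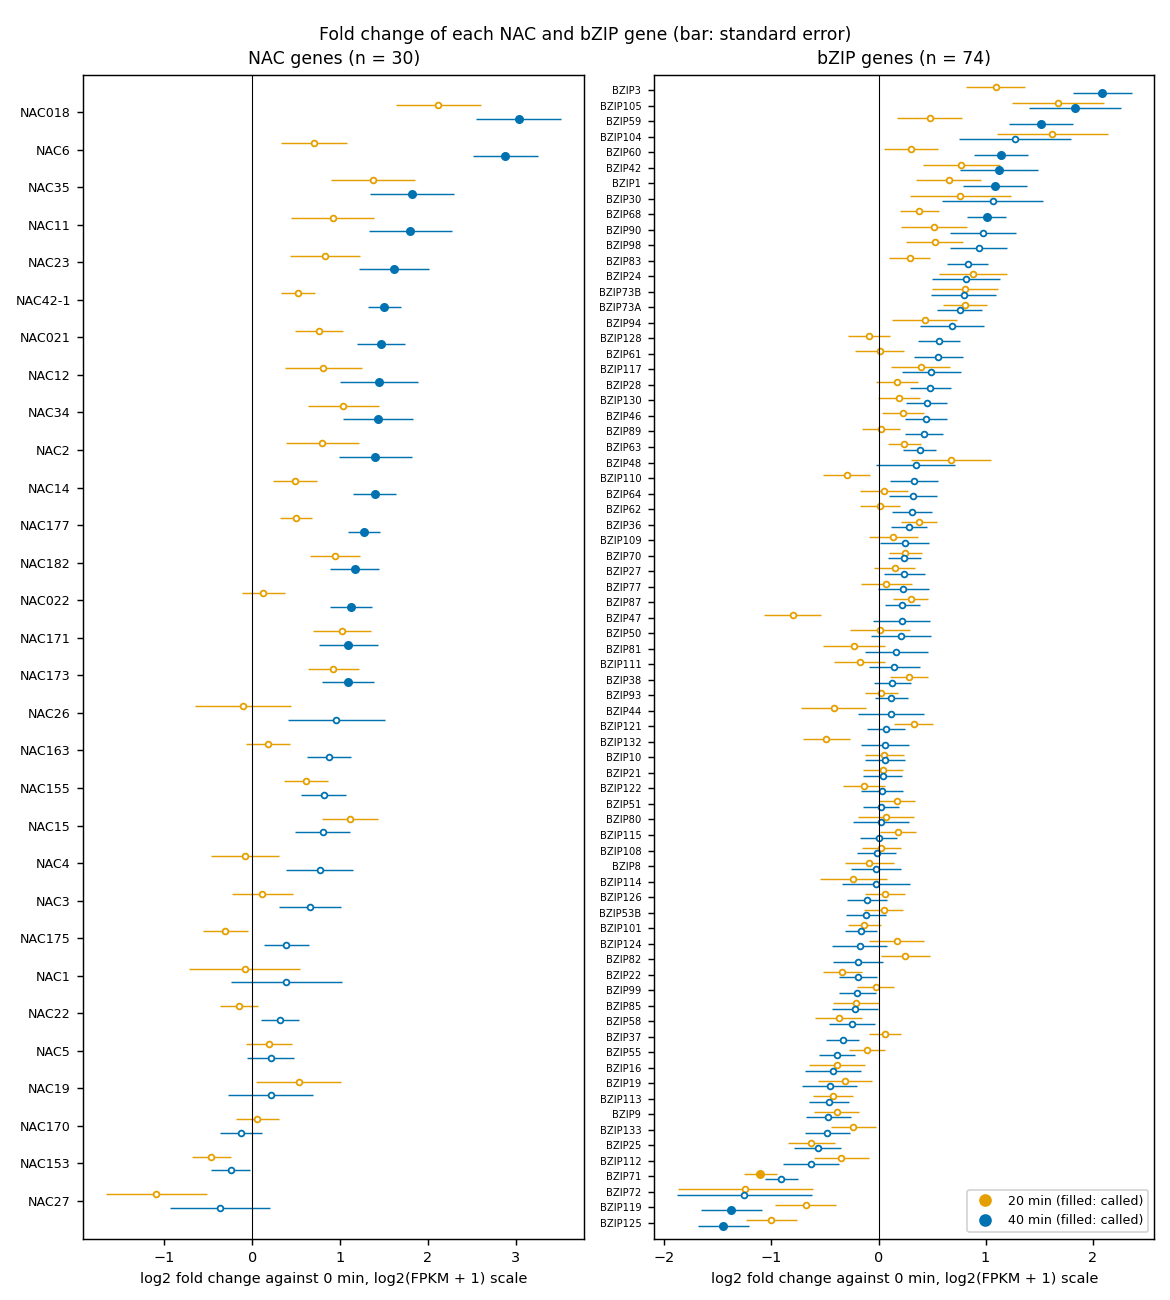
Log2 fold change against t0 (horizontal axes, log2(FPKM + 1) scale) of the 30 NAC genes (left) and 74 bZIP genes (right) at 20 min (orange) and 40 min (blue), with the standard error as a bar and filled symbols for genes past the test. At 40 min 16 NAC genes are filled on the right side and none on the left; 7 bZIP genes are filled on the right and 2 on the left, and BZIP71 is filled at 20 min.

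At 20 min of sucrose, 0 NAC genes were called in either direction, and 0 bZIP genes were higher and 1 (1.35%) was lower, where 0.766% of all tested genes were higher and 0.156% lower. Without adjustment, 11 NAC genes had a p under 0.05 in the limma fit, all of them with a positive change, and 13 bZIP genes did, 7 of them positive. The share of all tested genes with such a p was not counted, so these counts have no background beside them. All t20 libraries lay above all t0 libraries for 10 NAC genes (33.3%) and 11 bZIP genes (14.9%), against 10.6% of all genes, and below for 0 NAC genes and 6 bZIP genes (8.11%), against 7.73%. At 20 min the median change on the log2 scale was 0.52 for NAC genes, 0.06 for bZIP genes and 0.02 for all genes. The NAC median was 0.27 without library 4, 0.70 without library 5 and 0.51 without library 6. The comparisons at 20 and 40 min share the t0 libraries, so their values are not independent.

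Without library 5, 6 NAC genes and 5 bZIP genes were higher at 20 min and 2 bZIP genes were lower, where 6% of all genes were higher and 0.818% lower. The NAC genes were NAC018 (2.75), NAC35 (1.93), NAC34 (1.5), NAC2 (1.35), NAC15 (1.33) and NAC173 (1.20, log2 values). The bZIP genes were BZIP104 (2.25), BZIP105 (2.21), BZIP30 (1.35), BZIP3 (1.33) and BZIP42 (1.20), with BZIP125 (-1.24) and BZIP71 (-1.07) lower. In this fit the t20 group holds 2 libraries, and 0 of all 32763 genes were called at 20 min in either direction when library 4 or library 6 was left out instead. The calls at 20 min thus depended on which t20 libraries were in the fit.

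Between 40 and 20 min, NAC6 was the 1 gene of both families past the test, with 23.2 to 39.2 FPKM at t40 against 3.72 to 12.1 FPKM at t20 (log2 difference 2.18 ± 0.37; limma, adjusted p = 0.0295). Of all genes, 1.3% were higher and 0.058% lower in this comparison. NAC6 passed in 5 of the 9 fits with a library left out, with the highest adjusted p at 0.133 without library 9. No NAC gene was called without library 5, 7, 8 or 9, where 0.577%, 0.626%, 0.00305% and 0% of all genes were higher. The count of bZIP genes called here was 0, with 13 at an unadjusted p under 0.05, for which the share of all genes was not counted.

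A stricter fold with an unadjusted p, the general rule in the methods of the study for changed genes (1.5 on the log2 scale, p under 0.05), gave 6 NAC and 3 bZIP genes higher at 40 min and 0 lower, where 6% of all genes were higher and 1.34% lower. At 20 min it gave 1 NAC gene (NAC018) and 2 bZIP genes (BZIP105 and BZIP104) higher and 0 lower, where 2.44% of all genes were higher and 0.607% lower.

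For some members the annotated transcript and the transcripts added by the assembly moved apart. On annotated rows only, 11 of the 16 NAC genes passed at 40 min, and NAC2, NAC14, NAC021, NAC022 and NAC173 did not. Of the 7 higher bZIP genes 6 passed, and BZIP105 did not, while BZIP61 was called in addition. Of all genes, 10.5% were higher in this setting. NAC021 (chromosome 4, 48443876 to 48447305) as a whole was at 8.58, 7.63 and 5.73 FPKM at t0, 12.2, 9.48 and 18.5 FPKM at t20, and 17.4, 20.4 and 29.2 FPKM at t40, and so rose by 1.47 ± 0.27 on the log2 scale (limma, adjusted p = 0.00613). Its annotated transcript alone was at 4.29, 6.34 and 1.86 FPKM at t0, at 0.0210, 0.0268 and 9.24 FPKM at t20, and at 0.0395, 0.175 and 0.303 FPKM at t40, so its share of the gene went from 56.9% to 0.772%. The annotated rows alone gave a log2 value of -2.04 at 40 min (adjusted p = 0.0765). The rise of NAC021 lay in the assembled transcripts, and these forms were not checked against reads.

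BZIP105 (chromosome 3, 45564979 to 45569346) as a whole was at 8.93, 4.82 and 4.88 FPKM at t0, 40.6, 9.74 and 23.9 FPKM at t20, and 23.7, 28.0 and 20.6 FPKM at t40, and so rose by 1.84 ± 0.43 on the log2 scale (limma, adjusted p = 0.0154). Its annotated transcript was at 0.752 to 5.00 FPKM at t0 and 1.85 to 3.27 FPKM at t40, with a log2 value of 0.04, and the assembled transcripts went from 2.11 to 4.12 FPKM to 17.4 to 26.1 FPKM. NAC14 (chromosome 18, 58195636 to 58197632) was at 7.67 to 8.52 FPKM at t0, 18.4, 8.83 and 9.83 FPKM at t20, and 24.9, 20.6 and 23.6 FPKM at t40, a change of 1.40 ± 0.25 (limma, adjusted p = 0.00497). On the annotated transcript alone the change was 0.77 (adjusted p = 0.190). In BZIP30, a TGA factor by its synonym whose sum did not pass the test (1.07, adjusted p = 0.123), the annotated transcripts were at 1.49 to 13.2 FPKM at t0 and 25.5 to 26.7 FPKM at t40, while the assembled one was at 8.71 to 11.9 and 5.40 to 13.6 FPKM. NAC018 passed the test on the annotated rows alone, with a change of 3.04, while NAC6 has no FPKM outside its annotated rows.

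**Figure D5:**
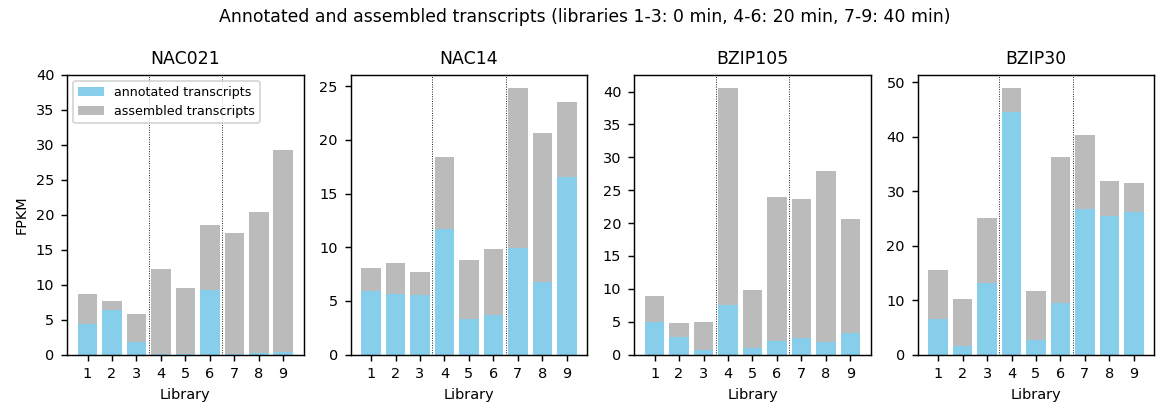
FPKM (vertical axes) of annotated transcripts (blue) and of transcripts added by the assembly (grey), stacked for each of the 9 libraries (horizontal axes; dotted lines separate t0, t20 and t40), for NAC021, NAC14, BZIP105 and BZIP30. In NAC021 the annotated transcript is at most 0.303 FPKM in the t40 libraries and all of the rise lies in the grey part.

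Other genes of the pathways in which these factors work were taken by symbol. In the NRP cell death pathway of soybean, to which NAC6 belongs, 2 of 7 tested genes (28.6%) were higher at 40 min and 0 were lower, where 10.5% of all tested genes were higher and 3.49% lower. NRP-A was at 8.50, 6.10 and 5.11 FPKM at t0, 61.6, 18.5 and 65.7 FPKM at t20, and 87.7, 109 and 93.1 FPKM at t40. NRP-B was at 7.90, 6.50 and 6.10 FPKM at t0, 20.2, 8.41 and 23.3 FPKM at t20, and 24.9, 36.0 and 26.1 FPKM at t40. Both encode the asparagine-rich proteins that start the pathway, every sucrose library lay above every t0 library, and the log2 fold changes at 40 min were 3.71 ± 0.41 and 1.92 ± 0.33 (limma, adjusted p 0.000955 and 0.00435). NRP-A also passed at 20 min (2.54, limma, adjusted p = 0.0340), where NAC6 did not (0.70, adjusted p = 0.368). The difference between NRP-A and NAC6 at 20 min was not tested. For NRP-A at 20 min the adjusted p was 0.000257 without library 5, 0.121 without library 4 and 0.127 without library 6, and NRP-B passed at 20 min only without library 5 (1.54, adjusted p = 0.00316). ERD15, the upstream regulator, had a log2 value of 0.13, the vacuolar processing enzyme genes VPE and VPE2 had 0.21 and 1.58, and the chaperone genes BIP2 and BIP4, whose protein restrains the pathway, had -0.66 and -0.54, none past the test.

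The TGA factors are bZIP proteins that partner with NPR1 in salicylic acid defence in Arabidopsis. Most of their genes carry TGA symbols and so fall outside the symbol rule. In the list of TGA, STF, NPR, COP and PR genes, 3 of 23 tested genes (13.0%) were higher at 40 min and 0 lower, near the 10.5% and 3.49% of all genes, and the median was 0.65 against 0.06 over all genes. STF-3 was at 3.15 to 4.86 FPKM at t0, 6.10 to 25.9 FPKM at t20 and 14.2 to 32.1 FPKM at t40 (2.27 ± 0.44), and TGA11 was at 1.01 to 1.84 FPKM at t0 and 4.36 to 5.18 FPKM at t40 (1.27 ± 0.27; limma, adjusted p 0.00793 and 0.0116). TGA23 was the third, with a change of 1.25. The defence genes PR1-1 to PR1-5, which may share reads as near copies, had log2 values of 0.82 to 1.18 and did not pass.

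The next list was matched by letters to symbols of genes that bZIP11 controls in Arabidopsis. In it the asparagine synthetase gene AS2 was the 1 of 6 tested that passed (3.49% of all genes were lower), at 354, 101 and 106 FPKM at t0, 173, 59.4 and 145 FPKM at t20, and 44.3, 40.6 and 41.7 FPKM at t40. The t40 libraries lay below all others, and the log2 value fell by 1.86 ± 0.50 (limma, adjusted p = 0.0265). Its paralogue AS1 was at 12.5 to 57.1 FPKM at t0 and 45.1 to 154 FPKM at t40 (1.64, adjusted p = 0.0934), with overlapping groups. The genes with the symbols PDH, PDH1 and PDH2 had 0.80, 0.29 and 0.01, none past the test. Whether they encode proline dehydrogenase was not checked. The SnRK1 kinase genes SNRK1 and SNRK1.1 had log2 values of 0.05 and 0.15 at 40 min. Of the 5 tested genes in that list and the 1 tested gene of the abscisic acid list, CYP707A1A (0.49), 0 were called. ABI5, AREB3-1 and AREB3-2 did not reach the minimum.

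In other transcription factor families taken by symbol in the same way, 30 of 50 WRKY genes (60%) were higher at 40 min and 0 lower, 11 of 50 MYB genes (22.0%) were higher and 1 lower, and 4 of 8 ERF and DREB genes (50%) were higher and 0 lower, where 10.5% of all genes were higher and 3.49% lower. In the last group, DREB1-like was at 0.0720 to 0.202 FPKM at t0 and 3.35 to 7.48 FPKM at t40 (2.37 ± 0.47 on the log2(FPKM + 1) scale; limma, adjusted p = 0.00820), and ERF6 was at 8.81 to 17.7 and 27.6 to 43.7 FPKM (1.59 ± 0.41; limma, adjusted p = 0.0219). The medians at 40 min were 1.39 for WRKY, 1.04 for ERF and DREB and 0.68 for MYB genes, against 1.09 for NAC and 0.16 for bZIP genes. Among all tested genes, only 1862 carry a symbol other than a locus number, so further members of each family stay outside these counts.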

How the data were processed

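RNA-seq libraries from 9 root tip samples were made with a stranded mRNA kit, and the authors trimmed the reads (Trimmomatic 0.32), used HISAT2 for alignment, StringTie for assembly and Ballgown for abundance. What the authors deposited is the FPKM of every transcript in every library, a value relative to transcript length and library size. Coordinates are those of the table (Glycine_max_v4.0). The 9 coverage columns were not used.

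FPKM was summed over the rows of a gene identifier (363 rows for the members, 270 of them with the family symbol) in Python 3.11.15 with pandas 2.3.3. Genes at 1 FPKM or more in 3 or more libraries were fitted with limma 3.58.1 in R 4.3.3 (lmFit, eBayes with a variance trend) on log2(FPKM + 1) over all 9 libraries, and p-values were adjusted by Benjamini-Hochberg over all 32763 genes. The procedure was tested on simulated data. Depth was estimated from the step between low FPKM values multiplied by transcript length, where 39.0% to 49.8% of low single-exon values were within 0.02 of a whole fragment. Genes named are, per family, up to 12 called genes, the 3 most abundant and the 2 steadiest with a mean of at least 5 FPKM, and up to 2 called genes of each other list. Others were named after their values were seen.

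The members and lists were chosen with earlier results of these data known. Alternatives were pseudocounts of 0.1 and 0.5, no filter or a minimum of 5 FPKM, median-ratio scaling, quantile normalization, fits with only 2 of the times, no variance trend, other thresholds, annotated rows only, and leaving out each library.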

Additional observations from a re-analysis of the deposited data

Results flagged for a closer look

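Direct comparison of 40 with 20 min, a test of the difference itself, gave an adjusted p under 0.05 for NAC6 and NAC42-1, of which only NAC6 also passed the fold threshold. NAC6 was 2.18 higher on the log2 scale at 40 min than at 20 min (limma, adjusted p = 0.0295), with t40 values of 23.2 to 39.2 FPKM against 3.72 to 12.1 FPKM. NAC42-1 was 0.98 higher (limma, adjusted p = 0.0421), with 3.13 to 3.25 FPKM against 0.748 to 1.52 FPKM, and so just missed the fold threshold of 1. For both genes library 5 was near t0, and for NAC6 so was library 4. Without library 5 neither gene passed (1.92, adjusted p = 0.0649 for NAC6, and 0.84, adjusted p = 0.0932 for NAC42-1, limma). NAC6 also failed without library 7, 8 or 9, with the highest adjusted p at 0.133 without library 9 (limma). With each library left out in turn, NAC6 passed in 5 of 9 fits and NAC42-1 in 1.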

How the results depend on the processing

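The counts of called genes depended on several choices, and the cause was not tested unless stated. No paired analysis was possible because the columns of the table carry no replicate number and libraries were not matched to replicates by their values. NAC genes higher at 40 min were 9 of 37 tested with no filter beyond FPKM above 0, and 9 of 15 tested with a minimum of 5 FPKM. They were 10 under quantile normalization and 6 by unadjusted p with a fold of 1.5. Of all genes, 6.01%, 11.9%, 8.21% and 6% were higher in these settings, in the same order. With a library left out they were 6 to 16, where 7.47% to 11.8% of all genes were higher. bZIP genes higher at 40 min were 3 by unadjusted p and 1.5, 11 by adjusted p with no fold threshold, and 3 to 9 with a library left out. With no fold threshold this was 11 of 74, where 14.7% of all genes were higher. bZIP genes lower at 40 min were 0 by unadjusted p and 1.5, where 1.34% of all genes were lower. NAC genes called at 20 min were 1 with a pseudocount of 0.1, 1 by unadjusted p and 1.5, and 0 to 6 with a library left out. Of all genes, 1.93% were higher with that pseudocount and 2.44% by unadjusted p and 1.5. With a library left out, 0% to 6% of all genes were higher at 20 min and 0% to 0.818% lower. bZIP genes called at 20 min were 0 with no filter, 0 in the fit of the 2 groups compared, 0 on annotated rows and 2 by unadjusted p and 1.5, and 0 to 7 with a library left out. Of all genes, 0 were called with no filter, and 0 were higher and 1 lower in the fit of the 2 groups. On annotated rows 0.766% of all genes were higher and 0.153% lower. Between 40 and 20 min, NAC genes called were 0 with a pseudocount of 0.1, with no filter, with a minimum of 5 FPKM and in the fit of the 2 groups. They were 2 with no fold threshold and 0 to 6 with a library left out, and bZIP genes called were 0 to 3 with a library left out. Of all genes, 1.41% were higher with no fold threshold. With a library left out, 0% to 3.11% of all genes were higher in this comparison and 0% to 0.879% lower. NAC021 reversed on its annotated rows, to -2.04.

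Quantile normalization moved the median of all genes at 40 min from 0.06 to -0.11, and the split of all called genes from 3441 higher and 1144 lower to 2690 and 1621. The 10 NAC genes called under it were all higher. Of 576 values of named genes under the alternatives, 499 stayed on their side of the threshold, 71 lost the call and 5 gained it. For genes called in the main fit, 1 value reversed its direction. Genes not called in the main fit could change sign and still count among the 499, as BZIP115 and NAC19 did with some libraries left out. The t40 libraries were the shallowest, so low values are least precise there. In the paper they also had the lowest alignment rates, and the part of this in the changes at 40 min was not tested.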
